A study of Mus musculus with 103 samples.

Results

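Single mouse embryos made with sperm heads from low protein (LP) fathers were compared by where in the male tract the sperm had been taken. The comparison set 23 embryos from rete testis heads against 17 embryos from cauda epididymis heads, which together were 40 of the 103 embryos measured. Members were chosen by their labels and no measured value entered the choice. Every embryo was of the FVB strain. Oocytes came from females on Control diet, so that diet differed on the father's side only, and all 40 embryos here shared a father on the LP diet. Fertilization was by intracytoplasmic sperm injection (ICSI), in which a sperm, or here its head alone without the tail, is placed in the oocyte with a needle. Embryos grew in KSOM medium and were collected at 28 hours, at the 2-cell stage, for RNA sequencing of single embryos. The other embryos were 22 rete and 20 cauda head embryos of Control fathers, and 12 rete and 9 cauda embryos of whole sperm, for which the labels give no diet. How many males and oocyte donors stood behind each group is not given in the sources used here, so that p-values measure the spread between embryos, which may share parents.

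Sperm leave the testis through the rete testis, a network of channels, and become motile and able to fertilize on the way to the cauda, the tail end of the epididymis. During that passage sperm take up small RNAs, fragments of tRNA among them, and the study asked what sperm from each place give the embryo. At the 2-cell stage the mouse embryo breaks down the RNA stored in the oocyte and starts to transcribe its own genome. A first wave of that transcription includes genes driven by or linked to MERVL, an endogenous retrovirus, such as the Zscan4 and Usp17-like families. Genes for ribosome production, RNA processing and other general functions follow as transcription becomes broad.

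Values are CPM, that is, reads scaled to a common library size, so that less of a transcript and more of all others cannot be told apart. Libraries held an estimated 529863 to 4788734 reads in rete LP embryos (median 1197679) and 642790 to 1543117 reads in cauda LP embryos (median 1056545; two-sided permutation test of the means, p = 0.0587). Of the 7894 genes in the table, 7582 ± 360 reached 1 CPM in rete LP embryos and 7692 ± 104 did in cauda LP embryos (SD, n = 23 and 17; permutation p = 0.203). All 10 transcripts used to check the stage, among them Zscan4d, Zfp352, Gdf9, Nlrp5 and Dppa3, were at 3.17 CPM or more in each of the 40 embryos. Of the listed cumulus cell markers 3 of 15 were tested, and their sum ran from 7.31 to 380.8 CPM in rete LP embryos and from 109.6 to 387.2 CPM in cauda LP embryos. Of the sperm transcripts 2 of 14 were tested, Odf2 and Ldhc, with sums of 111.4 to 819.8 CPM in rete LP embryos and 149.9 to 465.3 CPM in cauda LP embryos. The testicular list had 1 tested member of 10, Gata4, at 0.797 to 953 CPM in rete LP embryos and 94.9 to 676.1 CPM in cauda LP embryos, and the epididymal list 1 of 10, Aqp9, at 1.46 to 89.4 CPM in rete LP embryos and 14.3 to 129.6 CPM in cauda LP embryos. The 2 sperm transcripts differed in sign, with log2 fold changes (rete LP minus cauda LP) of 0.71 ± 0.24 for Odf2 and -0.57 ± 0.44 for Ldhc (SE). For Odf2, 19 of 23 rete LP embryos were over the cauda LP median. None of these 7 markers passed the test below, and their part in the results was not tested. With array weights, described below, Odf2 did pass (limma adjusted p = 0.00333).

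Some LP embryos stood apart from the rest, either by closeness to another embryo or by being unlike their own group. Rete LP embryos 20 and 21 correlated at 0.973 across genes, and 22 and 23 at 0.945, while no pair outside these 4 embryos exceeded 0.889. Their values differed by more than the noise of counting reads, and each was kept as a sample. That difference does not show that the members of a pair are independent of each other, which was not tested. These 4 embryos were not unlike their own group, with median correlations of 0.799 to 0.834. Cauda LP embryo 13 and rete LP embryos 11 and 2 were least like their own groups, with median correlations of 0.392, 0.449 and 0.553, and rete LP embryo 11 reached 1 CPM in 6095 genes only. Rete LP embryos had the wider spread, with a median standard deviation of 1.20 per gene on the log2 scale against 0.92 in cauda LP embryos. Without these 7 embryos it was 0.93 in rete LP and 0.77 in cauda LP embryos. Rete embryos had the wider spread in Control heads too, at 1.22 against 1.0 in cauda embryos.

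Expression of 6 genes was lower in rete LP than in cauda LP embryos and that of none was higher. These 6 of 7894 genes are 0.076% of those tested, and they were Pdxp, Hspbap1, Tnks2, Siah2, Zmynd19 and Mreg (limma on log2(CPM + 1), fitted over all 82 head embryos, Benjamini-Hochberg adjusted p under 0.05). Their log2 fold changes, rete LP minus cauda LP, lay between -2.34 and -0.85. At an unadjusted p under 0.05 there were 608 genes (7.7%), of which 521 were lower and 87 higher in rete LP embryos, where 395 would be expected with no difference at all. The median log2 fold change of all genes was -0.14 and 33.6% of genes had a positive one. This median was -0.00 after quantile normalization and 0.02 with sizes set by the median of ratios, so list medians below are read against that of all genes. Fitted on the 40 LP embryos alone (limma), or by a rank-sum test, 0 genes passed, although 589 and 899 had an unadjusted p under 0.05. Without the 7 embryos that stood apart 1 gene passed, Hspbap1, and leaving out rete LP embryo 6, 10 or 11 alone gave 10 genes, embryo 3 alone 11 and embryo 12 alone 12. With array weights, which give variable embryos less say, 260 genes passed, the 6 among them, with 82 higher and 178 lower in rete LP embryos.

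**Figure D1:**
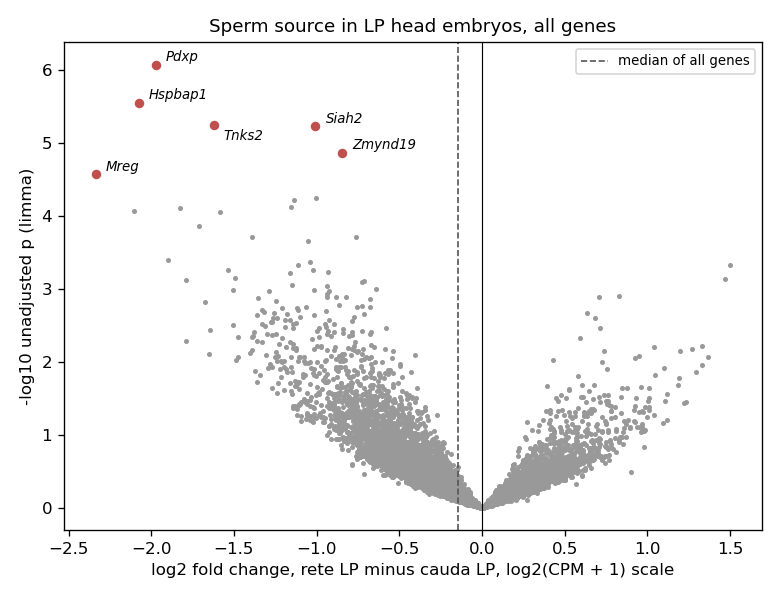
Each point is 1 of 7894 genes, with the log2 fold change (rete LP minus cauda LP) on the x axis and -log10 of the unadjusted limma p on the y axis; the dashed line is the median of all genes, -0.14. The 6 labelled points passed the adjusted threshold and all lie left of 0, and the cloud has more points low in rete LP (521 under an unadjusted p of 0.05) than high (87).

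Pdxp (chr15:78912160-78919517, RefSeq on GRCm38.p6, as for the positions below) encodes pyridoxal phosphatase, also called chronophin, which removes phosphate from vitamin B6 and from the actin regulator cofilin. Its values ran from 1.03 through a median of 24.2 to 131 CPM in rete LP embryos and from 30.6 through 74.3 to 184 CPM in cauda LP embryos. The groups overlapped, yet 21 of 23 rete LP embryos were under the cauda LP median and all 17 cauda LP embryos were over the rete LP median. The log2 fold change was -1.97 ± 0.37 (SE; limma adjusted p = 0.0067). Leaving out any 1 LP embryo kept it past the threshold, with adjusted p of 0.00105 to 0.02.

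Siah2 (chr3:58674949-58692439), a RING-type ubiquitin ligase that marks proteins for breakdown and acts in the response to low oxygen, was the most abundant of the 6. It had 157 to 1084 CPM in rete LP embryos (median 353) and 279 to 1208 CPM in cauda LP embryos (median 851). Most rete LP embryos lay low, 21 of 23 under the cauda LP median, but a few reached the cauda LP level, embryo 10 being the highest. The log2 fold change was -1.01 ± 0.21 (limma adjusted p = 0.0117), and it missed the threshold under median-of-ratios scaling (-0.82, adjusted p = 0.339).

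Zmynd19 (chr2:24949777-24960870), a MYND-type zinc-finger protein, showed the smallest change of the 6. It had 42.3 to 252 CPM in rete LP embryos (median 102) and 75.2 to 320.1 CPM in cauda LP embryos (median 181). A single rete LP embryo, number 19, was over the cauda LP median. The log2 fold change was -0.85 ± 0.18 (limma adjusted p = 0.0216), and it missed the threshold without cauda LP embryo 15, 21 or 22 and under quantile (adjusted p = 0.0904) and median-of-ratios scaling (adjusted p = 0.409).

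Tnks2 (chr19:36834129-36893477) encodes tankyrase 2, a poly-ADP-ribose polymerase with roles at telomeres and in Wnt signalling. It had 0.209 to 56.8 CPM in rete LP embryos (median 17.9) and 24 to 118 CPM in cauda LP embryos (median 48.7). All cauda LP embryos were over the rete LP median, and 1 rete LP embryo was over the cauda LP median. The log2 fold change was -1.62 ± 0.34 (limma adjusted p = 0.0117).

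Hspbap1 and Mreg were the low-level members, close to the depth limit of single embryos. Hspbap1 (chr16:35769726-35828462) encodes a protein that binds the small heat-shock protein HSPB1, and it had 0.1 to 15.9 CPM in rete LP embryos (median 5.67) and 0.1 to 81.1 CPM in cauda LP embryos (median 18.9). The value 0.1 stands for 0 in the table, and it was met in 9 of 23 rete LP embryos and 1 of 17 cauda LP embryos. No rete LP embryo was over the cauda LP median. The log2 fold change was -2.08 ± 0.41 (limma adjusted p = 0.0111). Mreg (chr1:72159233-72212314), melanoregulin, which acts in the transport and shedding of melanosomes in pigment cells, had 0.1 to 41.5 CPM in rete LP embryos (median 3.37) and 0.1 to 112 CPM in cauda LP embryos (median 28.9). It was at 0 in 6 of 23 rete LP embryos and 1 of 17 cauda LP embryos. With a log2 fold change of -2.34 ± 0.53 (limma adjusted p = 0.0357) it was the least stable of the 6, passing in 22 of the 40 fits that left out 1 LP embryo, with adjusted p of 0.0103 to 0.0777.

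**Figure D2:**
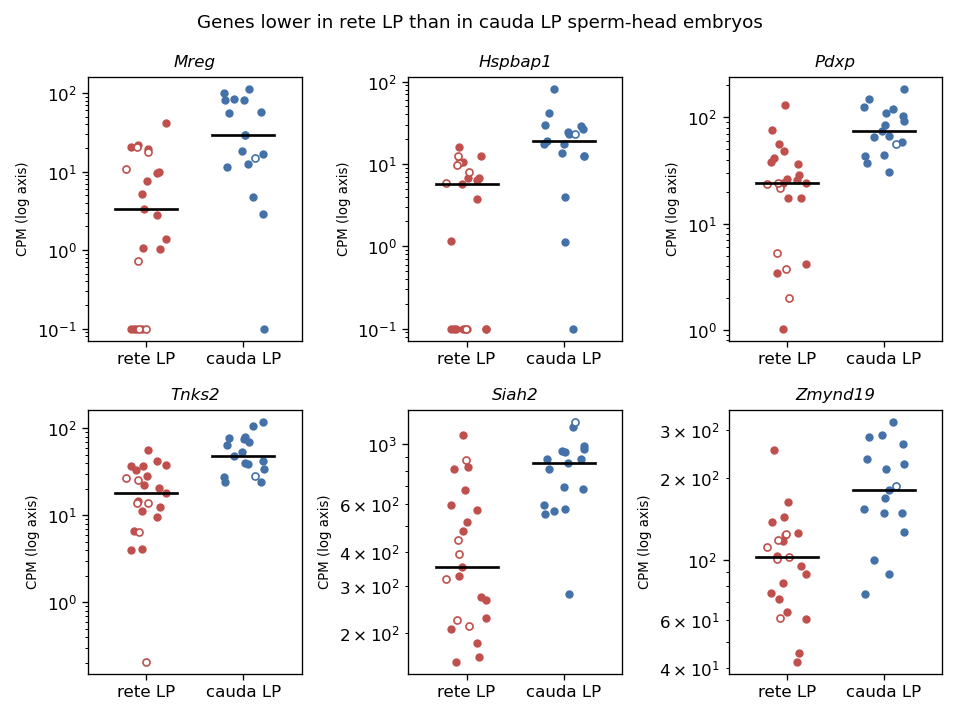
CPM on a log axis of the 6 genes in single embryos, 23 rete LP on the left and 17 cauda LP on the right of each panel; bars are medians and open circles are the 7 embryos that stood apart. Rete LP medians lie under cauda LP medians in every panel (24.2 and 74.3 CPM for Pdxp), while the ranges of the groups overlap.

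Just short of the threshold, at adjusted p of 0.058 to 0.0833, came 7 further genes, all lower in rete LP embryos on average. Akirin2, a nuclear protein that links transcription factors to chromatin remodelling and helps bring proteasomes into the nucleus, had 26.2 to 129.6 CPM in rete LP embryos (median 65.8) and 39.5 to 295 CPM in cauda LP embryos (median 155). Not a single rete LP embryo exceeded the cauda LP median. Alyref, an mRNA export adaptor, had medians of 27.0 and 78.4 CPM in rete LP and cauda LP embryos. Sdhd, a membrane subunit of succinate dehydrogenase, had medians of 10.3 and 24 CPM in the same groups. The others were Gch1 (GTP cyclohydrolase, the entry to tetrahydrobiopterin synthesis), the Polycomb protein gene Phc2, Scamp2 of the secretory pathway, and Oxa1l, which inserts proteins into the inner mitochondrial membrane. Their log2 fold changes ran from -2.10 ± 0.51 for Oxa1l through -1.82 ± 0.44 for Scamp2 and -1.16 ± 0.28 for Phc2 to -1.13 ± 0.27 for Gch1 (SE). These 4 and the examples beyond the naming rule given below were chosen after their values were seen.

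No gene with a positive difference passed, and those of smallest p are given here. Usp17ld, a Usp17-like deubiquitinase gene linked to MERVL, had 0.844 to 149 CPM in rete LP embryos (median 73.0) and 0.1 to 82.9 CPM in cauda LP embryos (median 32.2). In 21 of 23 rete LP embryos it was over the cauda LP median, with a log2 fold change of 1.5 ± 0.41 (limma adjusted p = 0.185). Without rete LP embryo 11, the one with few detected genes, it passed (1.73 ± 0.38, limma adjusted p = 0.0206). Lig1, the replicative DNA ligase, had medians of 18.2 CPM in rete LP embryos and 6.71 CPM in cauda LP embryos (1.47 ± 0.42, adjusted p = 0.217). The ubiquitin ligases Trip12 and Trim37 stood at 1001 and 139.7 CPM in rete LP embryos (medians) and at 632 and 88.3 CPM in cauda LP embryos. Dek, a chromatin protein, had medians of 220.1 and 148 CPM in rete LP and cauda LP embryos. Between 19 and 21 of the 23 rete LP embryos were over the cauda LP median for each of these 5 genes, and their adjusted p-values ran from 0.185 to 0.29. With array weights all 5 passed (limma adjusted p of 5.53e-05 for Usp17ld to 0.0327 for Dek).

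Across gene lists of the 2-cell embryo the differences leaned one way or the other without single members passing. No member but Hspbap1, which sits in the heat-shock list, passed the test. The MERVL-linked genes leaned towards rete LP embryos: 47 of 63 had a positive difference, their median log2 fold change was 0.28, and 6 had an unadjusted p under 0.05, all 6 positive, against 1.1% of all genes with such a p in that direction. Their mean level in an embryo, on the log2(CPM + 1) scale, was 5.79 to 8.79 in rete LP embryos (median 7.45) and 5.79 to 8.75 in cauda LP embryos (median 7.0). Rete LP embryos were over the cauda LP median in 21 of 23 cases, but the cauda LP embryos spread over the whole range. The median of the list was 0.40 after quantile normalization, 0.45 with median-of-ratios sizes and 0.30 when the 7 embryos that stood apart were left out. In Control heads it was 0.03 (33 of 63 positive), with all genes at -0.1. In whole-sperm embryos it was 0.31 (57 of 63 positive), with all genes at 0.1.

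Within that list the Zscan4 genes, which encode nuclear proteins that lengthen telomeres in mouse cells, and the Usp17-like genes included the largest differences. Zscan4c had 42.9 to 2830.0 CPM in rete LP embryos (median 112) and 3.17 to 395 CPM in cauda LP embryos (median 54.1), with 20 of 23 rete LP embryos over the cauda LP median. Its log2 fold change was 1.33 ± 0.47 (limma adjusted p = 0.384). Usp17lc had medians of 178 CPM in rete LP embryos and 76.2 CPM in cauda LP embryos (0.88 ± 0.38, adjusted p = 0.553). Zscan4d had medians of 152 and 126 CPM in rete LP and cauda LP embryos, and Zfp352, another early 2-cell gene, 824 and 704 CPM, both within the spread of embryos. Both families hold near-identical copies that can share reads, so values of single members are uncertain.

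Genes of the mitochondrial ribosome, of oxidative phosphorylation and of the proteasome leaned the other way, and did so in Control heads too. Their medians in Control heads were -0.27, -0.37 and -0.41 in that order, with all genes at -0.1. In whole-sperm embryos they were -0.08, 0.06 and -0.02, with all genes at 0.1. In LP heads 7 of 52 mitochondrial ribosomal protein genes had a positive difference, with a median of -0.39. Of the nuclear-encoded oxidative phosphorylation genes 7 of 54 had one, with a median of -0.21. Each list held 6 genes with an unadjusted p under 0.05, all negative, where 6.6% of all genes had such a p in that direction. Mrps9, a small-subunit protein of the mitochondrial ribosome, had medians of 5.68 CPM in rete LP embryos and 15.3 CPM in cauda LP embryos, with 1 of 23 rete LP embryos over the cauda LP median (-1.33 ± 0.42, adjusted p = 0.281). Mrpl35 of the large subunit had medians of 15.9 and 25.5 CPM in rete LP and cauda LP embryos (-1.11 ± 0.31, adjusted p = 0.185). Ndufa10, a subunit of complex I, had medians of 16.2 and 40 CPM in the same groups (-1.01 ± 0.32, adjusted p = 0.288). Sdhd, given above, had the smallest p of the oxidative phosphorylation list (-1.71 ± 0.43, adjusted p = 0.0833).

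The mean level of the oxidative phosphorylation genes was 3.99 to 5.38 in rete LP embryos (median 4.84) and 3.98 to 5.56 in cauda LP embryos (median 5.18), and 2 of 23 rete LP embryos were over the cauda LP median. That of the mitochondrial ribosomal protein genes was 3.40 to 5.11 in rete LP embryos (median 4.52) and 3.65 to 5.67 in cauda LP embryos (median 4.99). Cauda LP embryo 13 was among the lowest of all in both lists. The mean over all 7894 genes had medians of 5.57 and 5.63 in rete LP and cauda LP embryos, with 6 of 23 rete LP embryos over the cauda LP median. Under median-of-ratios scaling the 2 lists had medians of -0.05 for oxidative phosphorylation and -0.21 for mitochondrial ribosomal proteins, with all genes at 0.02. Without the 7 embryos that stood apart, the medians were -0.36 for oxidative phosphorylation and -0.47 for mitochondrial ribosomal proteins, with all genes at -0.11.

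Proteasome subunit genes had a positive difference in 4 of 39 cases, with a median of -0.34. The smallest p belonged to Psmb2, a subunit of the catalytic core, with medians of 55.7 CPM in rete LP embryos and 84.1 CPM in cauda LP embryos (-0.62 ± 0.25, adjusted p = 0.465). The mean level of the list was 4.51 to 6.63 in rete LP embryos (median 6.10) and 4.93 to 6.94 in cauda LP embryos (median 6.51). Cytosolic ribosomal protein genes were positive in 4 of 82 cases, with a median of -0.32, but 2 of them alone had an unadjusted p under 0.05, and their median was -0.13 under median-of-ratios scaling, with all genes at 0.02. Without the 7 embryos that stood apart it was -0.49, with 0 of 82 positive and all genes at -0.11. In Control heads it was -0.73, also with 0 of 82 positive, and in whole-sperm embryos 0.61, with 74 of 78 positive. The list for small GTPases and actin regulators had 13 of 50 positive and a median of -0.27 (28 of 50 and 0.07 in Control heads). It included Rac1, Cdc42 and Arf6, switches of the actin cortex and of membrane traffic, and Cfl2, a cofilin. Cdc42 had 6.89 to 276 CPM in rete LP embryos (median 157) and 132 to 299 CPM in cauda LP embryos (median 216), and Cfl2 had medians of 165 and 267 CPM in rete LP and cauda LP embryos (adjusted p = 0.273 and 0.232). Actin itself, Actb, had medians of 168 and 217 CPM in the same groups (-0.77 ± 0.36, adjusted p = 0.618).

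**Figure D3:**
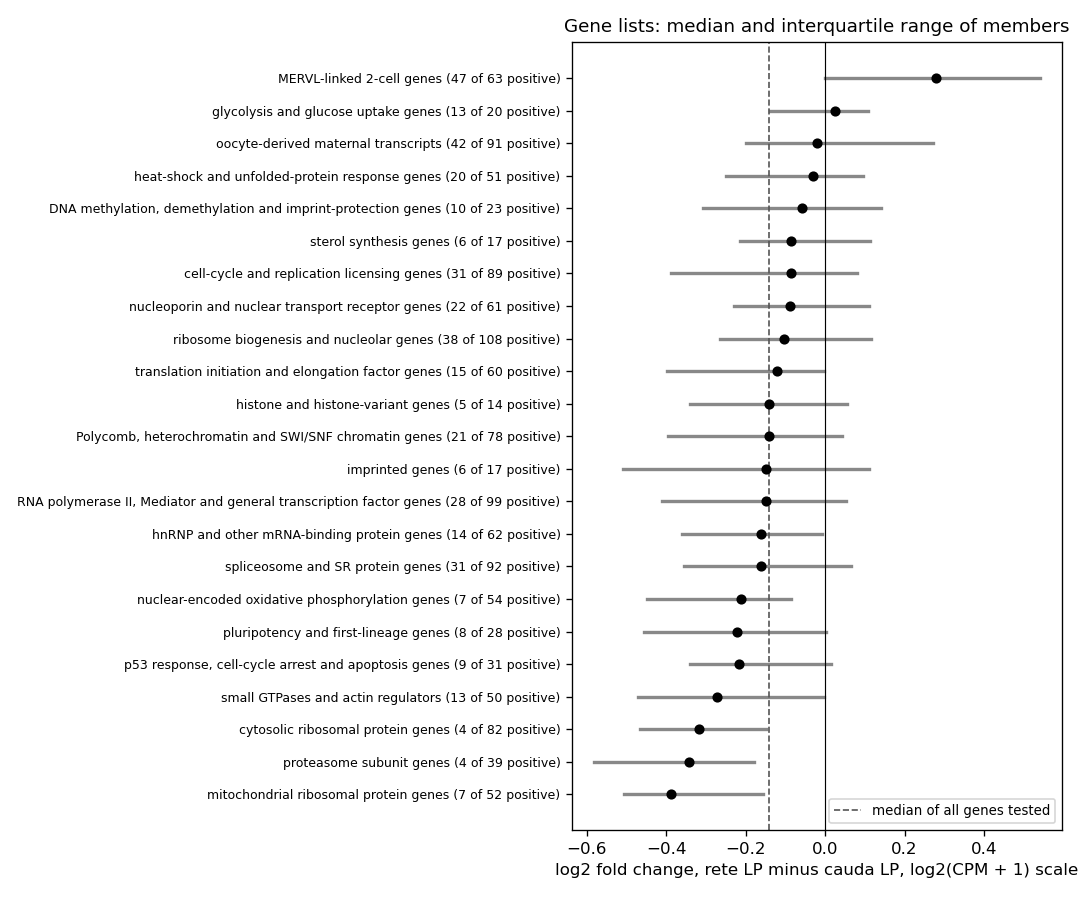
Median (dot) and interquartile range (bar) of the log2 fold changes, rete LP minus cauda LP, of the tested members of each gene list that had at least 5 of them, with the count of positive members (marker lists of other cell types, with 1 to 3 tested members, are not drawn); the dashed line is the median of all genes, -0.14. Of the lists drawn, MERVL-linked genes lie furthest right (0.28) and mitochondrial ribosomal protein genes furthest left (-0.39).

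Of the transcripts stored in the oocyte 42 of 91 were positive (46.2%, beside 33.6% of all genes). Their median was -0.02, near 0 but over the -0.14 of all genes. Under median-of-ratios scaling it was 0.17, with all genes at 0.02. Ooep, a part of the subcortical maternal complex, had 14.3 to 142 CPM in rete LP embryos (median 63.5) and 27.0 to 349.9 CPM in cauda LP embryos (median 99.2; -0.86 ± 0.27, adjusted p = 0.273). Dppa3, which guards maternal DNA methylation, had medians of 3016 and 3064 CPM in rete LP and cauda LP embryos (-0.15 ± 0.18). Glycolysis genes had 13 of 20 positive and a median of 0.02. Of translation initiation and elongation factors 15 of 60 were positive, with a median of -0.12, near the -0.14 of all genes. At an unadjusted p under 0.05, 4 of the 60 were lower and 2 higher in rete LP embryos. Of all genes, 6.6% were lower and 1.1% higher at that p. The smallest p belonged to Eif4ebp2, which encodes a repressor of the cap-binding protein, with medians of 10.4 CPM in rete LP embryos and 17.9 CPM in cauda LP embryos and 5 of 23 rete LP embryos over the cauda LP median (-1.33 ± 0.47, adjusted p = 0.365). Eif4g2, a member with a positive difference which starts translation without the cap-binding protein, had 282 to 1575 CPM in rete LP embryos (median 1285) and 509 to 1395 CPM in cauda LP embryos (median 914), and 22 of 23 rete LP embryos were over the cauda LP median (0.39 ± 0.19, adjusted p = 0.645).

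**Figure D4:**
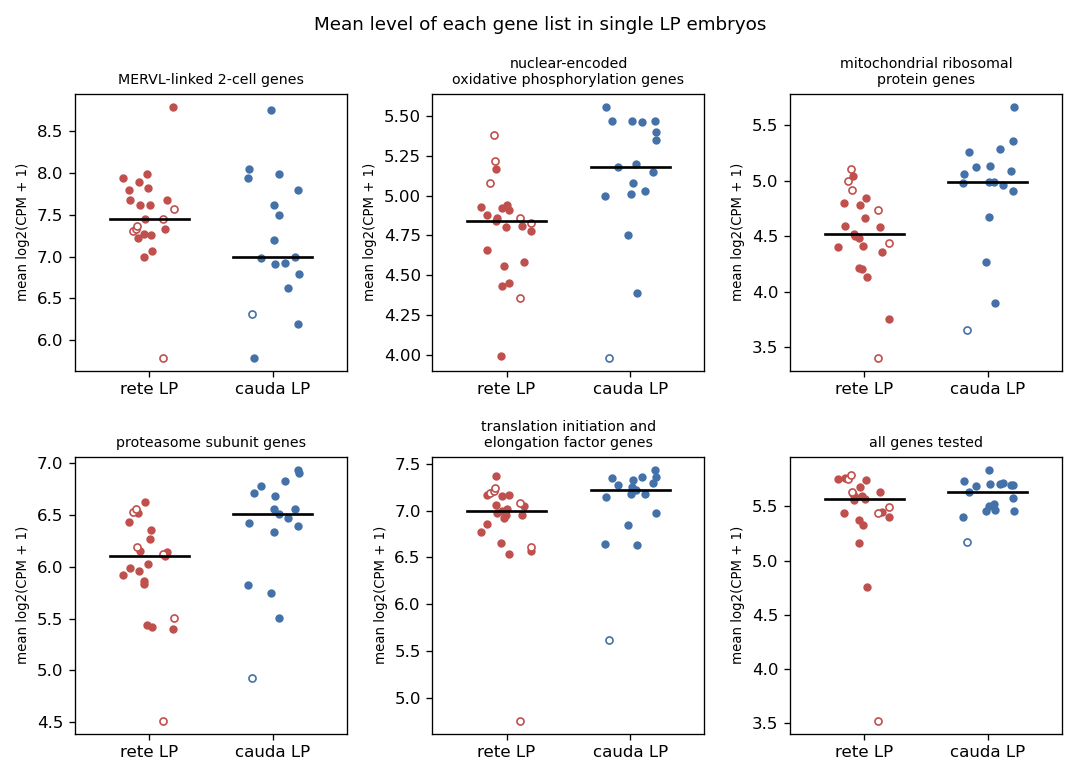
Mean log2(CPM + 1) of 5 gene lists and of all genes in single embryos, 23 rete LP on the left and 17 cauda LP on the right of each panel; bars are medians and open circles are the 7 embryos that stood apart. Rete LP medians lie over cauda LP medians for MERVL-linked genes (7.45 and 7.0) and under them for oxidative phosphorylation genes (4.84 and 5.18).

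Whether the source difference depended on the father's diet was tested by the interaction of source with diet over the 82 head embryos. It passed for 15 of 7894 genes (0.19%), in each of which rete embryos were lower than cauda embryos under LP diet and higher under Control diet. The genes were chosen by the test of that difference, so that opposite signs in them are a description. Their log2 fold changes ran from -1.97 to -0.58 in LP heads and from 0.64 to 1.46 in Control heads. Pdxp, Siah2 and Zmynd19 passed both this test and that of source in LP heads. For source in Control heads, in the same fit of 82 head embryos, 3 genes passed (0.038%), Akirin2, Rac1 and Zmynd19, all higher in rete embryos. In Control heads 1745 of 7894 genes had an unadjusted limma p under 0.05, beside 608 in LP heads. With no difference at all, 395 would be expected in either. Without the 7 embryos that stood apart 12 of the 15 genes still passed, and without cauda LP embryo 1 there were 23 genes.

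The 4 groups can be set side by side for these genes. Pdxp had medians of 24.2 CPM in rete LP and 74.3 CPM in cauda LP embryos, and of 68.1 CPM in rete Control and 31.6 CPM in cauda Control embryos. Siah2 had 353 and 851 CPM in rete LP and cauda LP embryos, and 846 and 538 CPM in rete Control and cauda Control embryos. By median, the 2 low groups in all 15 genes were rete LP and cauda Control, and the 2 high ones cauda LP and rete Control. Akirin2 had the smallest p, with medians of 65.8 and 155 CPM in rete LP and cauda LP embryos and of 164 and 76.8 CPM in rete Control and cauda Control embryos (interaction -2.35 ± 0.33, limma adjusted p = 2.03e-06). Among the rest were Alyref, the splicing factor Srsf2, the RNA-binding protein Grsf1, and Ybx1, an mRNA-binding protein. Ybx1 had medians of 609 and 998 CPM in rete LP and cauda LP embryos and of 858 and 663 CPM in rete Control and cauda Control embryos. Others were Rac1 and Arf6, the cell-cycle regulator E2f1, and Suv39h2, a methyltransferase of histone H3 in heterochromatin. By list, 2 of 92 spliceosome and SR protein genes passed, and 2 of 62 hnRNP and other mRNA-binding protein genes. So did 2 of 78 chromatin genes and 2 of 50 small GTPases and actin regulators, beside 0.19% of all genes. Whether genes that handle RNA passed more often than others was not tested. Hspbap1, Tnks2 and Mreg did not pass the interaction test (-2.01 ± 0.58, -1.59 ± 0.47 and -2.19 ± 0.73, adjusted p = 0.158, 0.173 and 0.317), and their source differences in Control heads were -0.07 ± 0.40, -0.03 ± 0.32 and -0.15 ± 0.51.

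**Figure D5:**
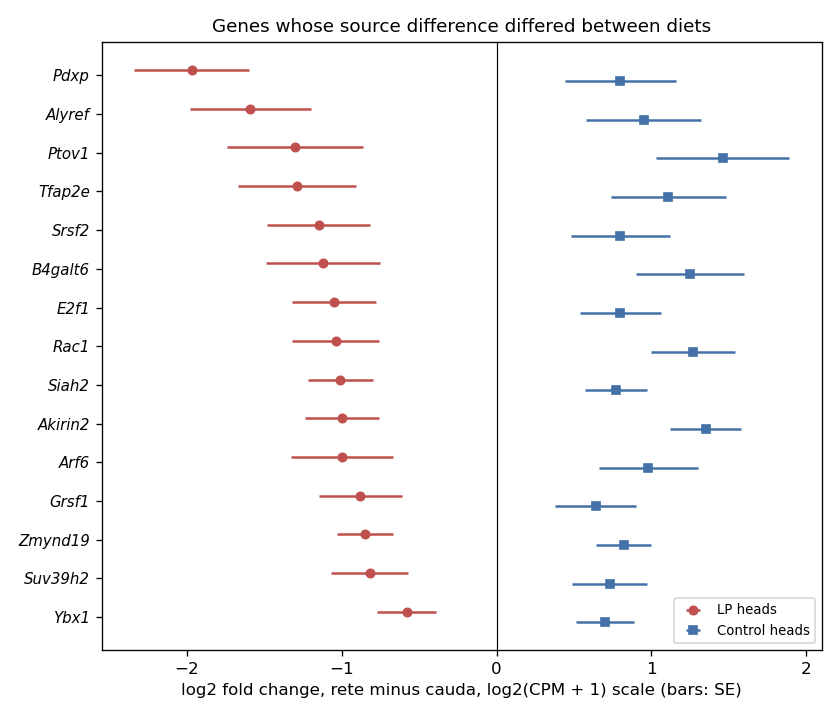
Log2 fold change, rete minus cauda, of the 15 genes past the source by diet test, in LP heads (circles) and Control heads (squares), with bars for 1 SE on each side. All circles lie left of 0 (-1.97 to -0.58) and all squares right of it (0.64 to 1.46), as the choice of genes by this difference favours.

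Promoter sequences are shown for Pdxp and Zmynd19, which passed both tests; Siah2 is the other gene that did. Both are the 250 bases upstream of the start that the RefSeq promoter table uses (GRCm38.p6), on the plus strand. The window of Zmynd19 ends just before the gene's span, while that of Pdxp lies inside the span given above, which begins further upstream. In both sequences the letters in capitals are CCAAT or its reverse complement ATTGG (in Pdxp the last capitals are 2 overlapping matches, CCAAT and ATTGG).
Pdxp, chr15:78913669-78913918: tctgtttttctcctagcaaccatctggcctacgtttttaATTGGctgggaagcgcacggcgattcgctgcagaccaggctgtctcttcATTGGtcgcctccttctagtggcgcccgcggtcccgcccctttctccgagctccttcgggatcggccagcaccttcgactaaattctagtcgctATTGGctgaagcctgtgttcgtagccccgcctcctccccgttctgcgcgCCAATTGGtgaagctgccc
Zmynd19, chr2:24949527-24949776: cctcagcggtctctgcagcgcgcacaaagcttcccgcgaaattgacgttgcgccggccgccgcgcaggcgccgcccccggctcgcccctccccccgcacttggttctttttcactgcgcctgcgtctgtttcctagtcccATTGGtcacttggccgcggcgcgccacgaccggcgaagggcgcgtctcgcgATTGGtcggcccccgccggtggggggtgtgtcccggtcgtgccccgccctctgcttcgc
Pdxp held 5 matches and Zmynd19 held 2. Of the 7788 promoters listed for genes tested 36.6% held at least 1 match on either strand, 14% at least 2 and 1.73% at least 4, and of all 32851 promoters of this length 33.8%, 10.1% and 0.84% did. Of the genes past the source by diet test 10 had promoters listed, 11 in all, and 6 of these held a match. A match says only that these letters stand in the window.

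In whole-sperm embryos, which carry the tail as well and were fitted alone, no gene passed between 12 rete and 9 cauda embryos (0 of 7782 by limma, 662 at an unadjusted p under 0.05). The 6 genes had log2 fold changes there of -0.93 ± 0.58 for Mreg, -0.50 ± 0.63 for Pdxp, -0.31 ± 0.22 for Siah2, -0.16 ± 0.50 for Hspbap1, 0.18 ± 0.31 for Zmynd19 and 0.59 ± 0.60 for Tnks2 (SE). None of the 6 was as far from 0 as in LP heads. Across genes, the source differences of LP heads correlated with those of Control heads at r = 0.113 and with those of whole sperm at r = 0.15, as a description over genes that are not independent of each other. Whether the source difference itself differed between LP heads and whole sperm was not tested.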

How the data were processed

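Embryos were lysed in TCL buffer and sequenced with a Nextera single-cell kit, per the labels. Per the submitters' processing notes, Bowtie and mm10 were used. Which counter, annotation and strand setting were used is not given in the sources used here. A single gene-level table was deposited by the authors, whose values were read as CPM: the 7894 genes of an embryo added up to between 92.08 and 98.15% of a library, zeros were written as 0.1 (2.49% of values), and each gene averaged 6.03 CPM or more over all embryos. Low values were multiples of a step that gave the reads per embryo; a median of 86.4% were whole reads (tolerance 0.001), too few for a count test. Precision is limited by depth, since 1 read is worth about 1 CPM in most head embryos.

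Groups came from the labels. limma 3.58.1 in R 4.3.3 (trend, robust) was run on log2(CPM + 1) over the genes with 9 or more embryos reaching 5 CPM, which all 7894 had in the 82 head embryos, fitted with 1 mean per group, and for whole sperm alone (7782 genes). This scale understates changes of low genes. The level of a list was averaged over its members in each embryo, as log2(CPM + 1). Named were up to 12 genes per direction that passed and averaged 10 CPM or more (otherwise the 6 of smallest p), the member of smallest p of each list, and all genes past the source by diet test. The comparison and lists were chosen with earlier results of these data known. The fit was tested on simulated data. Other settings tried were pseudocounts, filters, scalings, weights, detected genes as a covariate, a replicate block, a rank-sum test, the LP embryos alone, and leaving out embryos. Positions and promoters are from RefSeq (GRCm38.p6). A gene that the naming rule picks is not reported here. Other steps ran in Python 3.11.15 (pandas 2.3.3, numpy 2.4.6, matplotlib 3.10.9, scipy 1.17.1).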

Additional observations from a re-analysis of the deposited data

Results flagged for a closer look

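The source difference differed between fathers' diets, by the interaction test in limma, for 15 genes. Each value is the log2 fold change (rete minus cauda) in LP heads minus that in Control heads, with its SE. In chromatin and transcription genes it was -2.35 ± 0.33 for Akirin2, -1.56 ± 0.34 for Suv39h2, -1.85 ± 0.38 for E2f1 and -2.39 ± 0.53 for Tfap2e, an AP-2 family transcription factor. In RNA-binding genes it was -2.54 ± 0.54 for Alyref, -1.95 ± 0.47 for Srsf2, -1.52 ± 0.37 for Grsf1 and -1.29 ± 0.27 for Ybx1. It was -2.31 ± 0.39 for Rac1 and -1.98 ± 0.46 for Arf6, both small GTPases. For the 3 genes that also passed in LP heads it was -2.77 ± 0.52 for Pdxp, -1.77 ± 0.29 for Siah2 and -1.67 ± 0.26 for Zmynd19. The last 2 were Ptov1 at -2.76 ± 0.61 and B4galt6, a galactosyltransferase of glycolipid synthesis, at -2.38 ± 0.51. Adjusted p-values ran from 2.03e-06 for Akirin2 to 0.046 for Grsf1.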

How the results depend on the processing

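The count of 6 genes between rete LP and cauda LP embryos was 0 in the LP embryos alone and by the rank-sum test, 1 without the 7 embryos that stood apart (an alternative chosen after seeing the data), 3 under median-of-ratios scaling, 11 with a pseudocount of 5, 13 at an adjusted p under 0.1, and 260 with array weights, 82 of them higher and 178 lower in rete LP embryos. Leaving out 1 embryo gave 4 to 12 genes for this count and 12 to 23 for the 15 source by diet genes, of which array weights gave 74. Among single genes the direction turned only under array weights, for Mpc1 (-0.0803), Serpine2 (0.1236) and Gata4 (0.0297); the cause was not tested. Deviations of same-numbered embryos from their group means correlated at -0.239 to 0.155 over 16 numbers, 1 of them best with its own. The labels do not say whether replicate numbers pair embryos, and these correlations cannot decide it. The fit with the replicate block gave 8 and 16 genes. Averaging rete LP embryos 20 and 21, and 22 and 23, also chosen after seeing the data, gave 6 and 14. Other settings kept both counts within 1.5 times. Genes of few reads carry more counting error: Hspbap1 and Mreg had medians of 5.67 and 3.37 CPM in rete LP embryos, of which 9 and 6 of 23 were at the value written for zero.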

Other observations

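Cell-cycle and chromatin genes held single members with differences in both directions, none of them past the adjusted threshold. In the cell-cycle list 31 of 89 were positive (34.8%, near the 33.6% of all genes). At an unadjusted limma p under 0.05, 7 of its 89 genes were lower and 2 higher, where 6.6% of all genes were lower and 1.1% higher. Cdc25a, a phosphatase that activates cyclin-dependent kinases, had 0.1 to 75 CPM in rete LP embryos (median 18.7) and 12.4 to 120.1 CPM in cauda LP embryos (median 35.9; log2 fold change -1.11 ± 0.35, limma adjusted p = 0.281). Anapc10, a subunit of the anaphase-promoting complex, had medians of 20.5 and 47.3 CPM in rete LP and cauda LP embryos (-0.92 ± 0.27, adjusted p = 0.232). For both, 1 of 23 rete LP embryos was over the cauda LP median. In the other direction, Cdk2 had medians of 177 and 123 CPM in rete LP and cauda LP embryos (0.61 ± 0.28, adjusted p = 0.596). In the chromatin list 21 of 78 were positive (26.9%). Rbbp7, a histone-binding protein of several chromatin complexes, had medians of 788 and 539 CPM in rete LP and cauda LP embryos (0.43 ± 0.16, adjusted p = 0.406), while the Polycomb gene Rnf2 had 153 and 239 CPM (-0.54 ± 0.22, adjusted p = 0.462). Yap1, a coactivator of the Hippo pathway that acts in the first lineage choice, had 73.9 to 580.3 CPM in rete LP embryos (median 261) and 239.9 to 708 CPM in cauda LP embryos (median 398; -0.76 ± 0.20, adjusted p = 0.104). Hspa1b, an inducible heat-shock gene, had medians of 82.7 and 43.5 CPM in rete LP and cauda LP embryos, with 21 of 23 rete LP embryos over the cauda LP median (0.78 ± 0.39, adjusted p = 0.645). These genes were chosen after their values were seen, except Yap1.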
